A study of Mus musculus with 6 samples.

Results

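The 10 genes described are genes of antigen presentation by CD1d and MHC class I, read in stage 0 thymic iNKT cells: Cd1d1, Cd1d2, B2m, H2-K1, H2-D1, H2-T23, Tap1, Tap2, Tapbp and Nlrc5. They were chosen by name, as the molecule that selects iNKT cells together with classical class I genes and the genes that load and regulate them. All 10 were found among the 48397 rows of the count table and all 10 were among the 12312 genes with enough reads to be tested. Stage 0 iNKT cells are the earliest iNKT cells found after selection and were sorted as PBS57-CD1d tetramer+, CD24+, CD69+, CD44-, CD8- cells with low or no CD4. The comparison was between BALB/c mice, called WT for genotype, and SKG mice, which carry a hypomorphic mutation of Zap70, the kinase that relays the TCR signal, on the BALB/c background. Mice of both groups were 8 to 10 weeks old and untreated as far as the labels say. Each group had 3 libraries, and each library came from about 1000 cells sorted from thymi pooled from 3 mice, so that a library is a pool and not a single animal.

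CD1d1 is a class I-like heavy chain that pairs with β2-microglobulin, takes up lipids in endosomes and presents them to the semi-invariant TCR of iNKT cells. In the thymus the selecting CD1d molecules are carried by double-positive thymocytes, which lie next to the developing iNKT cell and from which it descends. Classical class I molecules use the same β2-microglobulin but take peptides in the endoplasmic reticulum, where the TAP transporter delivers them and tapasin holds the empty heavy chain beside it, and NLRC5 is the transactivator that drives class I, B2m and Tap1 genes through conserved promoter boxes.

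The members lie in a few places of the genome (GRCm38, with GENCODE M21 gene models). Cd1d1 (chr3:86995834-86999441, minus strand) and Cd1d2 (chr3:86986551-86989780, plus strand) are neighbours in opposite orientation. H2-K1 (chr17:33996017-34000347, minus strand), H2-D1 (chr17:35262730-35267499, plus strand), H2-T23 (chr17:36029773-36032855, minus strand), Tap1 (chr17:34187553-34197225, plus strand), Tap2 (chr17:34203527-34216321, plus strand) and Tapbp (chr17:33915899-33929292, plus strand) belong to the MHC region. B2m (chr2:122147686-122153083, plus strand) and Nlrc5 (chr8:94434356-94527272, plus strand) lie outside it. Every value rests on reads counted over all exons of a gene. The reference genome is from C57BL/6 mice, which carry the H-2b haplotype, whereas BALB/c and SKG mice carry H-2d. Reads from the class I heavy chains were therefore assigned by their match to another haplotype's alleles, and the levels of H2-K1 and H2-D1 relative to other genes rest on that match, which is the same for both groups.

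The promoters of 4 members are shown because B2m, H2-D1 and Tapbp are the members whose reads were lower in all SKG libraries, and H2-K1 is the closest relative of H2-D1. Each line gives the 250 bases before the RefSeq start of the gene (GRCm38.p6), read 5′ to 3′ on the strand of the gene, with motif matches in capitals. The motifs searched, on both strands, were an interferon-response element (GAAA, any 2 bases, GAAA), the κB element of class I genes (GGGATTCC), the X2 motif TGACG and the Y box ATTGG, whose reverse complement is CCAAT.
B2m (chr2:122147437-122147686, plus strand): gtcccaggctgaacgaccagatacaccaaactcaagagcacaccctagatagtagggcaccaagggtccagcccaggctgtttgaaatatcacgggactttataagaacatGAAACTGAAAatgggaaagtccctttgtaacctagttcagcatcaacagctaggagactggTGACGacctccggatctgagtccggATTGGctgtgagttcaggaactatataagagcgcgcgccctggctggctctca
H2-K1 (chr17:34000348-34000597, minus strand): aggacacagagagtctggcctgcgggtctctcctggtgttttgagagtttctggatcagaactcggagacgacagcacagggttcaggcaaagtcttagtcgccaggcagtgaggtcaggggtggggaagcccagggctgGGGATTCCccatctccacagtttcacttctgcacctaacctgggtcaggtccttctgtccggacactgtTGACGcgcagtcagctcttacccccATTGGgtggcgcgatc
H2-D1 (chr17:35262844-35263093, plus strand): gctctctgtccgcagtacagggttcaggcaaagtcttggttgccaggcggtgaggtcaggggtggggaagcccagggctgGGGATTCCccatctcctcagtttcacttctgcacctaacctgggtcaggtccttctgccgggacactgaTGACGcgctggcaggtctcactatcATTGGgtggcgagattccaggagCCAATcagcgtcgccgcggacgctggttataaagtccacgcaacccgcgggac
Tapbp (chr17:33919228-33919477, plus strand): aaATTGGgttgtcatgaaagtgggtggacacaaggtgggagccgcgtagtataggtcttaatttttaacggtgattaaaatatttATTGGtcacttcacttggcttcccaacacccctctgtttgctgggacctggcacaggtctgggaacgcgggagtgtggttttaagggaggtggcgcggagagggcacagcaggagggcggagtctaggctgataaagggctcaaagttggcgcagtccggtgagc

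In B2m the interferon-response match lay 139 to 130 bases before the start, the X2 match 78 to 74 and the Y box 53 to 49. In H2-K1 the κB match lay 110 to 103 bases before the start, the X2 match 41 to 37 and the Y box 16 to 12. In H2-D1 the κB match lay 170 to 163 bases before the start, the X2 match 101 to 97, and Y boxes stood at 76 to 72 and, on the other strand, at 53 to 49. B2m, H2-K1 and H2-D1 shared the order TGACG, 20 bases, ATTGG, which was found on the strand of the gene in 15 of 27025 mouse promoters of this length (0.0555%). That spacing was picked after these matches had been seen. Of the motifs searched, Tapbp held only Y boxes, at 248 to 244 and at 165 to 161 bases before the start. The RefSeq starts of Tapbp and H2-D1 lie downstream of their GENCODE starts, so both printed stretches fall inside the GENCODE gene models. Sequence before those GENCODE starts was not searched. Taken singly, the short motifs are not rare: 34.5% of all promoters held the Y box and 17.9% the X2 motif. The longer motifs were rarer, with 3.04% for the interferon-response element and 0.873% for the κB element. Among the other members with a promoter sequence, H2-T23 held an interferon-response match at 124 to 115 and a Y box at 52 to 48, both on the other strand. Tap1 held an X2 match at 86 to 82 and a Y box at 222 to 218 on the other strand. No matches overlapped. H2-K1 and H2-D1 had no match to the interferon-response pattern, which does not show that they lack such an element. Each motif was searched in a fixed spelling, and variants of it stay in small letters. These are letters of the reference strain, and no binding was measured. Promoters of Cd1d1, Cd1d2, Tap2 and Nlrc5 are not shown.

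The libraries held 37176544 to 43115544 assigned reads, and 10835 to 14791 genes had at least 10 reads. The members together took 0.166% to 0.197% of the reads. Levels are given as CPM, counts per 1000000 reads with library totals scaled by the trimmed mean of M values (TMM). Zap70 itself was read 16887 to 20537 times in BALB/c and 12983 to 14773 times in SKG libraries, with a log2 fold change of −0.33 (SE 0.17, adjusted p = 0.953) and overlapping CPM. The SKG allele is a point mutation, so this level is no check of the labels. The 7 markers of stage 0 cells, which include Cd24a, Cd69 and Egr2, were read in every library. Trav11 was close to the floor, however, at 0.0270 to 0.180 CPM over all libraries, too low to be tested. Traj18 was also low, with a range of 1.16 to 2.13 CPM. The paper took its own reads over the TCRα locus as evidence of genuine iNKT precursors, and the gene counts used here do not repeat that check. The summed level of the 7 markers was 1699 to 2065 CPM in BALB/c and 966 to 1424 CPM in SKG, without overlap. Most of that sum was Egr2 (1351 ± 230.1 against 777 ± 248.7 CPM, SD, n = 3 each) and Cd69 (353 ± 39.9 against 193 ± 50.4 CPM), whereas Cd24a (52.4, 7.31 and 15.6 against 31.9, 88.6 and 90.7 CPM) and Cd4 (19.3 ± 12.9 against 24.1 ± 8.33 CPM) had higher means in SKG, with overlap. Of the other cell types a thymus sort can hold, the 8 markers of double-positive thymocytes summed to 67.7 to 437 CPM in BALB/c and 89.1 to 223 CPM in SKG (5 were read in every library and none was at 0 throughout). The 9 myeloid and dendritic markers summed to 5.10 to 53.7 and 5.34 to 115 CPM, the 7 B cell markers to 8.73 to 94.9 and 7.40 to 45.0 CPM, and 1 gene of each of these lists was read in every library. The 5 erythroid markers summed to 0.0270 to 69.7 and 0.0515 to 0.691 CPM, with Alas2 at 0. The 6 thymic epithelial markers summed to 28.1 to 40.4 and 10.3 to 86.9 CPM, with Psmb11 and Krt5 at 0. The 5 class II markers summed to 16.1 to 81.6 and 22.2 to 144 CPM, and 2 of them were read in every library. The groups overlapped in each of these sums, and BALB/c replicate 1 or SKG replicate 3 was the highest library in all of them.

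Within the stage 0 cells the members differed widely in abundance. Per kilobase of exon, B2m, the shared light chain, was the most abundant member in all 6 libraries, with a mean of 360 CPM per kb. Tap2 (103 CPM per kb), H2-D1 (96.0), H2-T23 (76.7) and Tapbp (65.8) followed. Tap1 (32.6), Cd1d1 (29.2), H2-K1 (22.5) and Cd1d2 (17.7) came next, and Nlrc5 was the lowest member in all 6 libraries, with 1.82 CPM per kb. Only 3 steps of this order were seen in every library, from B2m down to Tap2, from Tapbp down to Tap1 and from Cd1d2 down to Nlrc5. Neighbours at the other 6 steps changed places in 1 or 2 of the 6 libraries, so neighbours from Tap2 to Tapbp and from Tap1 to Cd1d2 did not differ beyond their spread. Cd1d1 stood at place 9, 9 and 7 of the 10 in the BALB/c libraries and at place 7, 7 and 5 in the SKG libraries.

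Cd1d1, the heavy chain recognised by iNKT cells, had the largest fitted difference between the groups of the 10 members. It was read 2159, 751 and 2430 times in BALB/c replicates 1 to 3 and 3070, 3751 and 5467 times in SKG replicates 1 to 3. This gave 52.3, 20.2 and 53.8 CPM in BALB/c and 76.2, 96.5 and 151 CPM in SKG. All SKG libraries were higher than all BALB/c libraries, and the spread within each group was wide (42.1 ± 19.0 against 108 ± 38.8 CPM, SD, n = 3 each). The fitted log2 fold change was 1.36 (SE 0.46, 95% interval 0.25 to 2.47), a 2.56-fold higher level in SKG. The unadjusted p was 0.0236, and with Benjamini-Hochberg adjustment over all genes tested by edgeR the p was 0.834, so Cd1d1 was not called. Without SKG replicate 3, the highest library, the log2 fold change was 1.05 and the unadjusted p 0.0770. Double-positive thymocytes, which carry CD1d, lay outside the sort gate (CD8-, with low or no CD4). BALB/c replicates 1 and 3 had nearly equal Cd1d1 levels at double-positive marker sums of 437 and 67.7 CPM, while in SKG the libraries stood in the same order for Cd1d1 and for these markers (89.1, 152 and 223 CPM). SKG replicate 3 also had the highest myeloid and dendritic sum. Without both BALB/c replicate 1 and SKG replicate 3, the libraries with the highest such sums, the log2 fold change of Cd1d1 was 1.23 (unadjusted p = 0.0774). The part of these cells in the difference was not tested. Fewer cells of a type and less RNA per cell cannot be told apart in these bulk libraries.

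Cd1d2, the second CD1d gene of the mouse, is annotated as a polymorphic pseudogene on the C57BL/6 reference. It gave 43.2, 12.8 and 31.6 CPM in BALB/c and 31.9, 29.4 and 13.1 CPM in SKG (29.2 ± 15.3 against 24.8 ± 10.2, SD, n = 3 each). The groups overlapped, with a log2 fold change of −0.23 (95% interval −1.74 to 1.28, adjusted p = 0.991), and the interval leaves room for changes in both directions. The direction depended on single libraries: without BALB/c replicate 1 the log2 fold change was 0.17 and without SKG replicate 3 it was 0.09. Cd1d1 and Cd1d2 are near-identical over part of their length. Of the 2565 stretches of 50 bases (the read length) in Cd1d1 transcripts, 489 also occur in Cd1d2, 19.1% of those of Cd1d1 and 31.1% of those of Cd1d2, so some reads of either gene could not be placed.

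The paralogs stood in different proportions in the 2 groups. Cd1d2 took 45.2%, 38.7% and 37.0% of the reads of the pair in BALB/c replicates 1 to 3 and 29.5%, 23.4% and 7.99% in SKG replicates 1 to 3 (40.3% ± 4.34 against 20.3% ± 11.1, SD, n = 3 each). Each SKG share was below each BALB/c share. The nearest libraries were BALB/c replicate 3 with an exact Clopper-Pearson interval of 35.4% to 38.5% and SKG replicate 1 with 28.2% to 30.9%, which cover counting error only. No test between the groups was run on this share. When the reads of both genes were summed, the groups still did not overlap: the sum was 95.5, 33.0 and 85.4 CPM in BALB/c and 108, 126 and 164 CPM in SKG. The log2 fold change of the sum was 0.90 (SE 0.42, unadjusted p = 0.0723, adjusted p = 0.952 by edgeR).

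**Figure D1:**
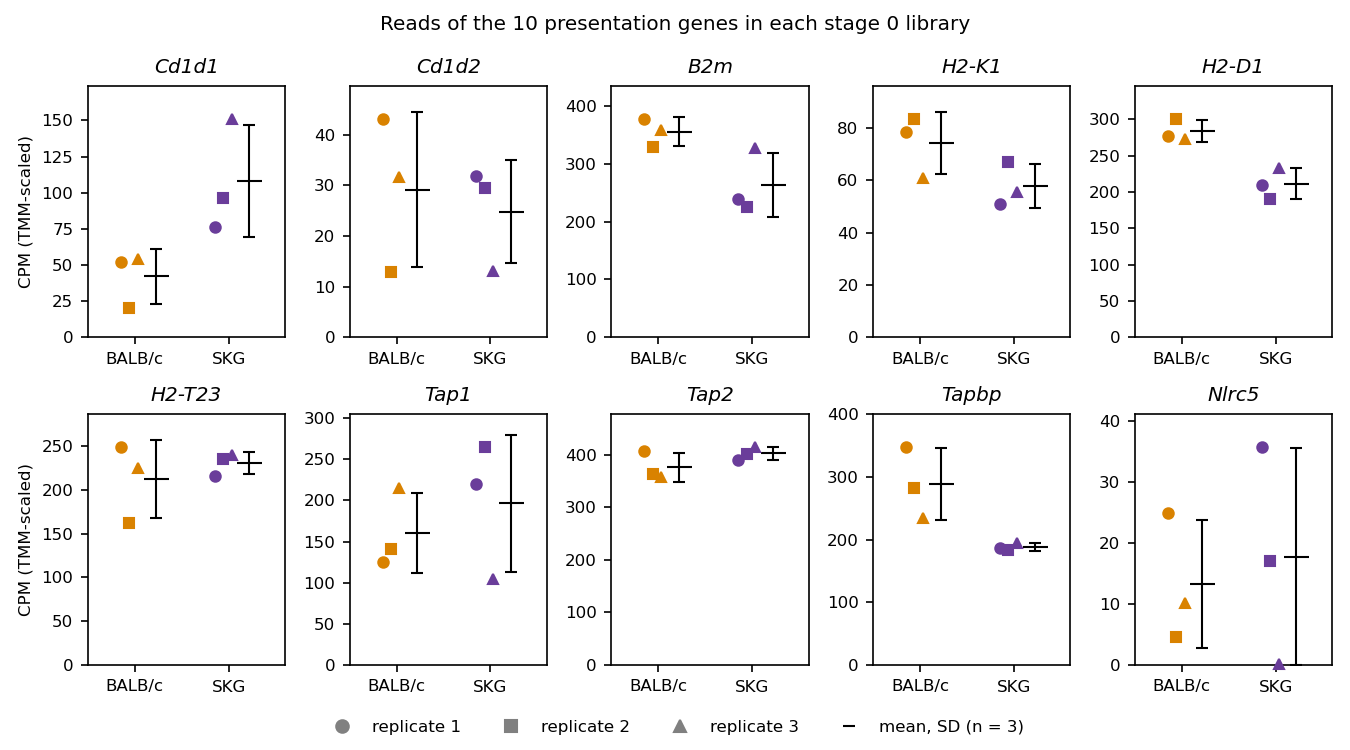
CPM (TMM-scaled, linear axes from 0) of each of the 10 genes in the 3 BALB/c (orange) and 3 SKG (purple) libraries; the marker shape gives the replicate number, and the bars give the mean and SD, cut at 0 where the SD exceeds the mean. Cd1d1 is higher and B2m, H2-D1 and Tapbp are lower in all 3 SKG libraries, and the other 6 genes overlap.

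B2m, the light chain that both CD1d and class I need at the cell surface, ran the other way from Cd1d1. Its level was 378, 328 and 359 CPM in BALB/c and 239, 225 and 327 CPM in SKG (355 ± 25.1 against 263 ± 55.2, SD, n = 3 each). The groups did not overlap, though SKG replicate 3 lay next to BALB/c replicate 2. The log2 fold change was −0.43 (SE 0.18, 95% interval −0.87 to 0.01), with an unadjusted p of 0.0537 and an adjusted p of 0.932. B2m shares no stretch of 50 bases with another gene, so its counts do not depend on the placing of reads among relatives. Egr2 and Cd69, but not the other stage 0 markers, were likewise lower in every SKG library, and the part of that difference in the lower B2m, H2-D1 and Tapbp levels was not tested.

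Of the classical heavy chains, H2-D1 had the tighter values. It was read at 277, 301 and 272 CPM in BALB/c and at 210, 191 and 234 CPM in SKG (284 ± 15.1 against 211 ± 21.4, SD, n = 3 each), with every SKG library below every BALB/c library. The log2 fold change of H2-D1 was −0.42 (SE 0.14, 95% interval −0.77 to −0.08, unadjusted p = 0.0238, adjusted p = 0.834 by edgeR). Leaving out BALB/c replicate 2, SKG replicate 1 or SKG replicate 2 took the unadjusted p above 0.05, with log2 fold changes of −0.39, −0.42 and −0.34. H2-K1 gave 78.3, 83.6 and 60.8 CPM in BALB/c and 50.8, 67.0 and 55.6 CPM in SKG. The H2-K1 groups overlapped through BALB/c replicate 3, and the log2 fold change was −0.36 (SE 0.26, 95% interval −0.99 to 0.26, adjusted p = 0.988). Of their 50-base stretches, 9.63% in H2-K1 and 12.8% in H2-D1 are shared with other genes, each other and the H2-Q genes among them.

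H2-T23 encodes Qa-1, a non-classical chain that shows peptides to CD94/NKG2 receptors. It did not follow H2-D1: its level was 250, 163 and 225 CPM in BALB/c and 216, 236 and 240 CPM in SKG, with overlap. The log2 fold change of H2-T23 was 0.12 (95% interval −0.35 to 0.58, adjusted p = 0.991), and its sign rested on BALB/c replicate 2, without which it was −0.05.

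Among the genes that bring peptides to class I, Tapbp did not overlap between the groups and both transporter genes did. Tapbp, which encodes tapasin, was 349, 282 and 235 CPM in BALB/c and 187, 183 and 195 CPM in SKG (289 ± 57.1 against 189 ± 6.22, SD, n = 3 each). The SKG libraries were both lower and closer together than the BALB/c libraries. Its log2 fold change of −0.61 (SE 0.18, 95% interval −1.05 to −0.18), a 1.53-fold lower level in SKG, had the smallest p of the members (unadjusted 0.0126, adjusted 0.804 by edgeR), and it was not called. Unlike H2-D1, Tapbp kept an unadjusted p under 0.05 when any single library was left out. Over 29.0% of its exon length other annotated genes, Gm19412 and Zbtb22, overlap Tapbp. Reads from there can belong to either gene and may have been left uncounted.

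Tap2, a subunit of the peptide transporter, was the steadiest member. It was 407, 363 and 358 CPM in BALB/c and 389, 402 and 416 CPM in SKG, with overlap and a log2 fold change of 0.10 (95% interval −0.20 to 0.40, adjusted p = 0.991). That interval does not reach a fold change of 1.5 in either direction. Over 18.5% of its exon length other annotated genes, Gm15821 and Gm20496, overlap Tap2, with the same limit on its level as for Tapbp. Tap1, the partner of Tap2, varied far more, at 126, 141 and 216 CPM in BALB/c and 220, 266 and 104 CPM in SKG. The lowest and the highest Tap1 libraries were both SKG, and the log2 fold change of 0.29 (95% interval −0.63 to 1.21) had an adjusted p of 0.991.

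Nlrc5, the class I transactivator, could not be compared. It was read 1027, 170 and 457 times in BALB/c and 1443, 661 and 3 times in SKG, or 24.9, 4.58 and 10.1 CPM against 35.8, 17.0 and 0.0830 CPM. SKG held both the highest and the lowest library, 432-fold apart. The log2 fold change was 0.42 with a 95% interval from −3.38 to 4.22 (adjusted p = 0.994). SKG replicate 3, with 3 Nlrc5 reads, had the highest B2m, H2-D1, H2-T23, Tap2 and Tapbp levels of the 3 SKG libraries. Its Tap1 level was the lowest, and its H2-K1 level lay between the others. These values rest on 1 library, and a relation to Nlrc5 was not tested.

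**Figure D2:**
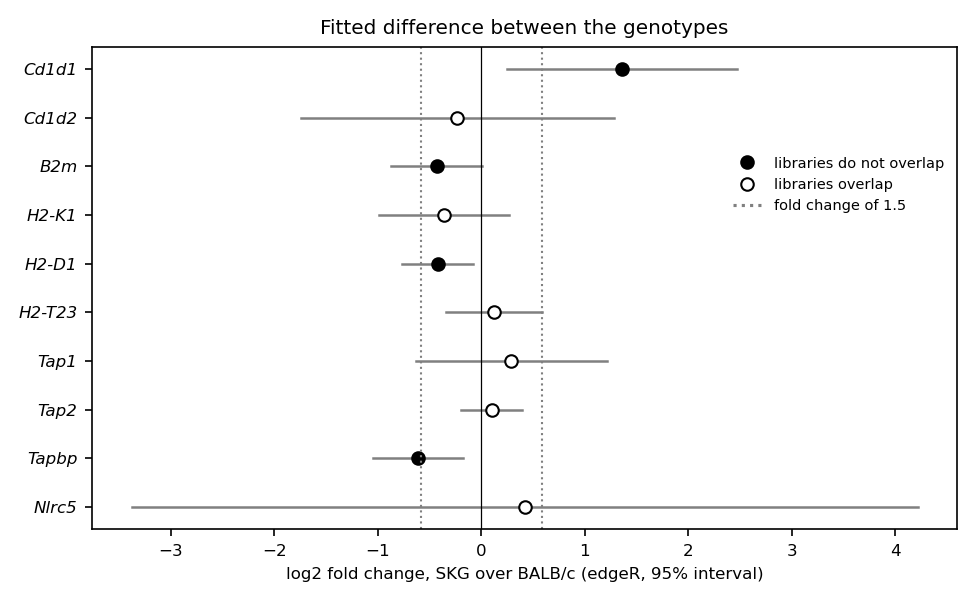
Fitted log2 fold change (SKG over BALB/c) of each member, with its 95% interval; filled points mark genes whose libraries do not overlap between the groups, and dotted lines mark a fold change of 1.5 in either direction. Only the intervals of Cd1d1, H2-D1 and Tapbp leave out 0, and the interval of Nlrc5, from −3.38 to 4.22, is the widest.

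Counted together, none of the 10 members was called by edgeR at a false discovery rate of 0.1 with a fold change of at least 1.5, and neither was any other gene (0 of 12312, 0%). Limma-voom also called no gene. DESeq2 called 370 of 24420 genes without shrinkage (1.52%) and 231 with it (0.946%), no member among them. At an unadjusted p under 0.05 there were 3 members, Cd1d1, H2-D1 and Tapbp, beside 671 of all genes (5.45%). H2-D1 and Tapbp were the 2 lower ones, and 2.38% of all genes were lower at that p. The groups did not overlap in 4 members, beside 13.9% of all genes. Of these, B2m, H2-D1 and Tapbp were lower in SKG, as were 7.12% of all genes, and Cd1d1 was higher, as were 6.77%. No test was run on these counts. These 4 members were the same when libraries were scaled by size alone or by DESeq2's size factors. The signs were even, with 5 of 10 members lower and a median log2 fold change of −0.07, beside −0.02 over all genes and 51.0% of genes lower.

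Ratios within a library do not depend on how libraries are scaled to one another, and 5 were compared. Cd1d1 reads per kb were 15.2%, 5.43% and 16.6% of those of H2-K1 plus H2-D1 in BALB/c replicates 1 to 3, and 30.0%, 38.8% and 53.7% in SKG replicates 1 to 3. Every SKG library was higher, and the mean log2 ratio was −3.17 ± 0.89 in BALB/c and −1.33 ± 0.42 in SKG (SD, n = 3 each), a 3.58-fold difference. The two-sided exact permutation p was 0.1, the smallest that 3 against 3 libraries allow, and 0.25 after adjustment over the 5 ratios. B2m per kb was 163%, 175% and 170% of the summed heavy chains (H2-K1, H2-D1, H2-T23, Cd1d1 and Cd1d2) in BALB/c and 124%, 111% and 146% in SKG, again without overlap. The log2 ratio of B2m was 0.76 ± 0.05 in BALB/c and 0.34 ± 0.20 in SKG (SD, n = 3 each), with the same exact permutation p of 0.1 and adjusted p of 0.25. The heavy chains of that sum did not move together. Log2 fold changes were −0.42 for H2-D1, −0.36 for H2-K1 and −0.23 for Cd1d2, but 0.12 for H2-T23 and 1.36 for Cd1d1. B2m itself was at −0.43, close to H2-D1 and H2-K1, and no ratio of B2m to these classical chains alone was tested. The other 3 ratios overlapped. H2-K1 over H2-D1 differed by 0.07 on the log2 scale (exact permutation p = 0.8), Tap1 over Tap2 by 0.12 (exact permutation p = 0.9) and Tapbp over H2-K1 plus H2-D1 by −0.19 (exact permutation p = 0.3).

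**Figure D3:**
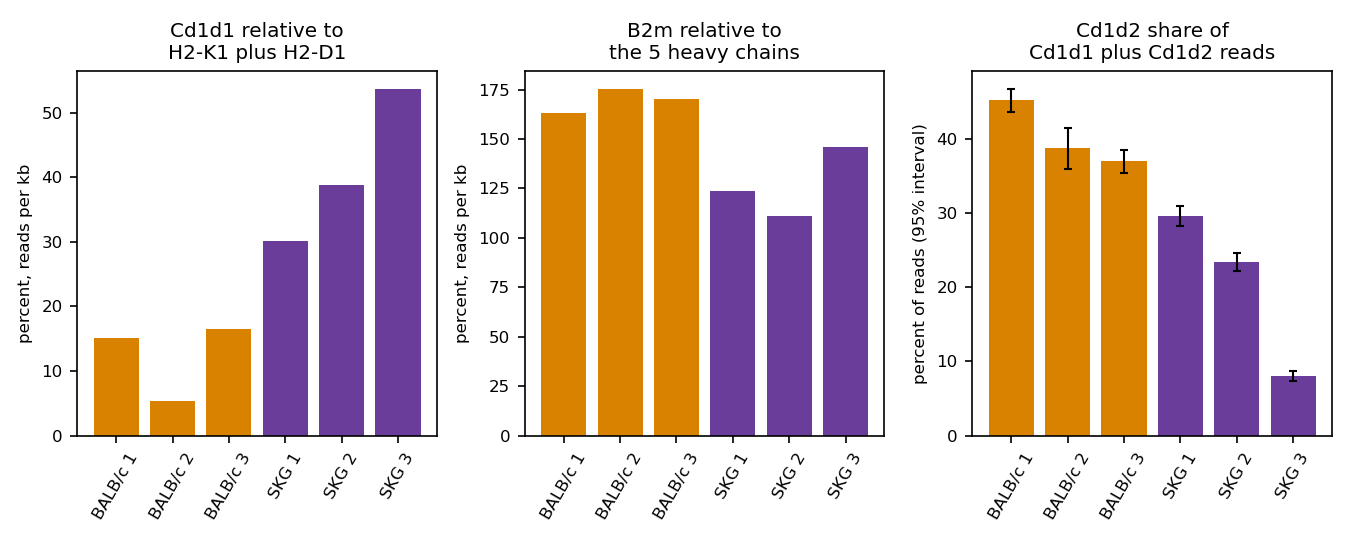
Bars, from 0, give for each of the 6 libraries Cd1d1 as a percentage of H2-K1 plus H2-D1 (reads per kb), B2m as a percentage of the 5 heavy chains (reads per kb), and Cd1d2 as a percentage of Cd1d1 plus Cd1d2 reads with its 95% Clopper-Pearson interval (orange, BALB/c; purple, SKG). In all 3 panels the BALB/c and SKG libraries do not overlap: the Cd1d1 ratio is higher in SKG, and the B2m ratio and the Cd1d2 share are lower.

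The members also differed in how far replicates of one genotype lay apart. Tap2 had a within-group coefficient of variation of 5.48%, beside a median of 17.8% for genes of like level, and only 1.17% of those genes were steadier. H2-D1 (7.50%) was steadier than all but 2.54% of genes of like level. Tap1 (38.1%), Cd1d1 (40.7%), Cd1d2 (48.2%) and Nlrc5 (95.1%) were above the medians of genes of like level, which were 23.1%, 30.3%, 44.7% and 57.3%. B2m (13.9%), H2-T23 (14.8%), H2-K1 (15.6%) and Tapbp (17.0%) were below such medians, which were 19.0%, 21.2%, 31.6% and 20.7%. As a description over 6 libraries that share the 2 genotypes, log2 levels of H2-D1 ran with those of B2m (Pearson r 0.88) and Tapbp (0.84). Levels of Cd1d1 ran with those of H2-T23 (0.79) and Tap2 (0.73). They ran against those of H2-D1 (−0.74), H2-K1 (−0.72) and Tapbp (−0.67).

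The wider pathway was read through lists of genes grouped by role, and no gene of any list was called by edgeR. Of the 11 genes of peptide loading and trimming, 9 were lower in SKG and the median log2 fold change was −0.23. Pdia3, which encodes the disulphide isomerase ERp57 of the loading complex, was 459, 730 and 584 CPM in BALB/c and 350, 383 and 324 CPM in SKG (log2 fold change −0.75, SE 0.20, unadjusted p = 0.00742, adjusted p = 0.686). Hspa5, the chaperone BiP, was 1371 ± 212 against 893 ± 97.5 CPM (SD, n = 3 each; log2 fold change −0.62). Calr, calreticulin, which holds class I in that complex, was 793 ± 94.3 against 597 ± 78.6 CPM (log2 fold change −0.41). These 3 genes and Tapbp made up the 4 with an unadjusted p under 0.05 and the 4 that did not overlap, all lower in SKG, beside 2.38% of all genes lower at that p and 7.12% lower without overlap. Pdia3, Hspa5 and Calr serve folding of many proteins in the endoplasmic reticulum besides class I.

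The immunoproteasome cuts the peptides, and its list of 7 genes also holds proteasome activator subunits and an assembly factor. All 7 had a log2 fold change below 0, with a median of −0.34. Among them 1 had an unadjusted p under 0.05 by edgeR and 2 did not overlap, all lower in SKG. Over all genes, 2.38% were lower at that p and 7.12% were lower without overlap. Pomp, which helps assemble the proteasome, was 298 ± 32.7 CPM in BALB/c and 219 ± 14.3 CPM in SKG (log2 fold change −0.45, SE 0.15, unadjusted p = 0.0212, adjusted p = 0.834). Psme3, an activator subunit of the nuclear proteasome, was lower in every SKG library with a smaller difference (log2 fold change −0.21, unadjusted p = 0.166). Psmb8, the most abundant catalytic subunit of the immunoproteasome per kb, hardly differed, at 464 ± 56.7 against 445 ± 92.0 CPM.

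Of 19 other class I and class I-like heavy chains, 13 had enough reads to be tested, and 9 of the 13 were lower in SKG, with a median log2 fold change of −0.24. Mr1, which presents vitamin B metabolites to MAIT cells, was read 1475, 1243 and 1018 times in BALB/c and 377, 695 and 2 times in SKG. The SKG libraries were uneven, and the log2 fold change of −1.75 had an SE of 1.46 (adjusted p = 0.991). H2-T10, a ligand of γδ T cells, was at 234, 387 and 273 reads in BALB/c and at 223, 78 and 146 reads in SKG. H2-Q6 had 953 reads in BALB/c replicate 1 and 25 to 36 reads in the other 5 libraries, so that 1 library carried the size of its difference, while the groups stood apart by a few reads without it. H2-M3, which presents formylated peptides, was 66.9, 21.5 and 50.8 CPM in BALB/c and 36.6, 37.1 and 44.0 CPM in SKG, and H2-T22, the close relative of H2-T10, was 30.3 ± 18.7 against 33.4 ± 5.02 CPM, both with overlap.

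Genes on the lipid side of CD1d presentation went in both directions, and some were too uneven to compare. Of 18 genes for lipid transfer, lysosomal glycosidases and AP-3 sorting, 10 were lower in SKG, and the median log2 fold change was −0.07. None had an unadjusted p under 0.05 by edgeR, beside 5.45% of all genes, and none was without overlap, beside 13.9%. Ctss was read 0, 0 and 65 times in BALB/c and 225, 2 and 810 times in SKG (log2 fold change 4.27, SE 2.83). Gla was read 2, 478 and 681 times against 138, 139 and 1 times (−1.99, SE 2.04). Ctss and Gla were named after their values were seen. Psap, the precursor of the saposins that load CD1d, was 348 ± 50.2 against 279 ± 17.2 CPM (log2 fold change −0.32, unadjusted p = 0.0882). Ap3s1, a subunit of the adaptor that directs CD1d to lysosomes, was 133 ± 24.8 against 156 ± 5.91 CPM.

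Among the 14 transcription factors of class I genes, Nlrc5 included, 6 were lower and the median log2 fold change was 0.11. Rela, an NF-κB subunit, was 250 ± 48.6 against 295 ± 73.1 CPM, and Nfyc, a subunit of the factor that binds the Y box, was 90.9 ± 26.1 against 122 ± 37.7 CPM.

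Class II genes served as a contrast, since they mark antigen-presenting cells more than thymocytes of the mouse. Of the 10 listed, 7 could be tested and only 1 of them was lower in SKG (median log2 fold change 0.33). No gene of the list had an unadjusted p under 0.05 by edgeR, beside 5.45% of all genes. Cd74, the invariant chain, was read 1021, 3 and 30 times in BALB/c and 4, 83 and 2863 times in SKG, and H2-Aa 353, 0 and 0 times against 2, 81 and 826 times, so BALB/c replicate 1 and SKG replicate 3 held most reads of both. Cd74 and H2-Aa were named after their values were seen. The other genes shown were steadier: H2-Ab1 was 24.2 ± 13.5 against 32.3 ± 9.80 CPM and H2-Oa 14.8 ± 1.10 against 18.3 ± 4.05 CPM. Among receptors and partners of CD1d and class I, 9 of 16 genes could be tested and 4 were lower. Slamf6, which is bound by itself on the neighbouring thymocyte during iNKT selection, was 2628 ± 223 CPM in BALB/c and 3325 ± 338 CPM in SKG, without overlap (log2 fold change 0.34, SE 0.13, unadjusted p = 0.0336, adjusted p = 0.869). The TCR β constant genes overlapped, with Trbc1 at 1112 ± 253 against 969 ± 102 CPM and Trbc2 at 1671 ± 315 against 1765 ± 376 CPM.

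**Figure D4:**
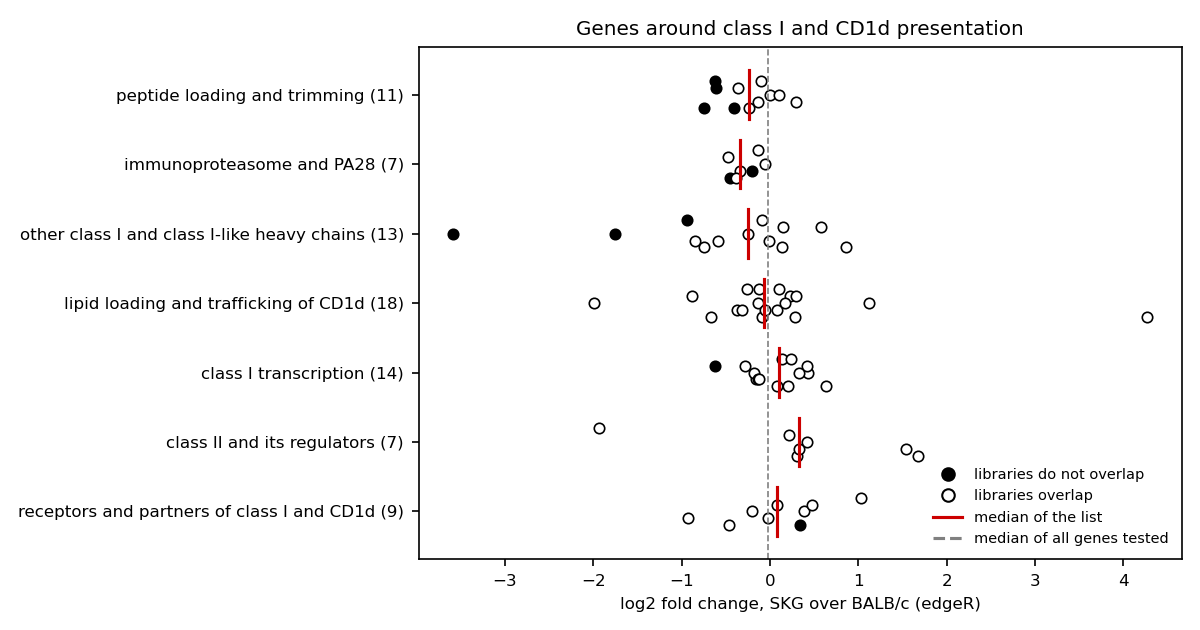
Fitted log2 fold change (SKG over BALB/c) of each tested gene in 7 lists by role, with the number of genes tested in brackets; filled points mark genes whose libraries do not overlap, red bars the median of a list and the dashed line the median of all 12312 genes. All 7 genes of the immunoproteasome list and 9 of 11 peptide loading genes lie below 0, while the lipid loading genes lie on both sides of it.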

How the data were processed

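RNA from sorted stage 0 thymic cells (3 BALB/c and 3 SKG libraries) had been amplified from polyA RNA with a SMART-Seq kit, per the labels. The labels give 18 preamplification cycles and 12 after tagmentation, and sequencing was as single 50-nt reads. The paper's methods name a different kit and fewer preamplification cycles, and the labels were followed here. Per the labels, the authors aligned reads with HISAT2 2.1.0 to GRCm38 and counted them over genes with featureCounts (Subread 1.4.4), and they deposited raw read counts per gene. A second deposited table, of the authors' own DESeq2 1.14.1 comparison, was not used. No molecular identifiers were counted, so the Clopper-Pearson intervals of read shares cover counting error only, while intervals of fold changes cover the spread between libraries. Counts were tested with edgeR 4.0.16 in R 4.3.3 (filterByExpr, TMM factors, quasi-likelihood F test, Benjamini-Hochberg adjustment over 12312 genes; a call needed an adjusted p under 0.1 together with a 1.5-fold difference), after a check on simulated counts. DESeq2 1.42.0 and limma 3.58.1 served as alternatives. Ratios used reads per kb of merged exons with 0.5 reads added. The groups came from the genotype labels. The labels call the libraries of each genotype independent samples, and p-values measure the spread between these pools of mice. No pair of libraries agreed within sampling noise. Named genes were the members, Zap70, list genes with an unadjusted p under 0.05 or without overlap, and the 2 of each list with most reads per kb. The 5 genes most like Cd1d1 were named as well. The values of 1 list gene are not reported here. The members and lists were chosen with earlier results of these data known. The peptide loading list holds Tap1, Tap2 and Tapbp, and the transcription list Nlrc5.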

Additional observations from a re-analysis of the deposited data

How the results depend on the processing

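No member was called under any alternative; the lowest adjusted p of a member was 0.213, for Cd1d1 by DESeq2 without shrinkage. DESeq2 called 370 genes without shrinkage (177 higher and 193 lower in SKG) and 231 with it, and edgeR without a filter on low counts called 2. In the receptor list DESeq2 without shrinkage called 2 genes, Klra1 and Pirb, whose reads lay in too few libraries for the edgeR filter (218 and 140 of the Klra1 reads in BALB/c replicates 2 and 3, 524 of the Pirb reads in SKG replicate 3); they were named after their values were seen. Replicate numbers did not pair the libraries: the correlation of deviations was −0.0920, −0.00962 and −0.145 for the title numbers, and −0.0384 and 0.00289 for the library numbers. With the title number as a replicate block the log2 fold change of Nlrc5 was −0.40, and with the library number as a block it was −3.01 and 0 members had an unadjusted p under 0.05; by limma-voom Nlrc5 was at −1.36. The cause of these reversals was not tested. With 1 library left out the log2 fold change ranged from −0.59 to 0.17 for Cd1d2, −0.049 to 0.26 for H2-T23 and −0.62 to 1.27 for Nlrc5, and the difference in log2 ratio from −0.15 to 0.55 for Tap1 over Tap2 and −0.11 to 0.17 for H2-K1 over H2-D1. Cd1d1 kept its direction under each of 20 alternatives (0.90 to 1.89). Among these, dropping the fold-change threshold or using a false discovery rate of 0.05 leaves the fit itself unchanged. The lowest value, 0.90, is from the reads of Cd1d1 and Cd1d2 summed, and the lowest for Cd1d1 alone was 1.01, without BALB/c replicate 2. Without BALB/c replicate 1 and SKG replicate 3, an alternative chosen after seeing the data, Cd1d2 was at 0.48, and 7 members did not overlap, when 38.7% of all genes did not. With 3 libraries a group the exact tests of the ratios cannot pass 0.05.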

Other observations

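Over the 6 libraries, the genes whose log2 level ran most closely with that of Cd1d1, among 8377 genes with a mean of at least 10 CPM, were Flt3l (Pearson r 0.99), Eri3 (0.98), Zfp410 (0.98), Trmt10a (0.98) and Timm22 (0.97). With so few libraries this is common: 28 genes had an r above 0.95, and 32 had the same rank order as Cd1d1. Since Cd1d1 did not overlap between the groups, genes chosen for their likeness to it tend to differ in the same direction. Flt3l, a cytokine for dendritic cell and lymphoid precursors, was 14.1, 7.93 and 16.7 CPM in BALB/c and 23.3, 24.3 and 42.7 CPM in SKG. Trmt10a, a tRNA methyltransferase, was 12.9 ± 5.63 CPM in BALB/c and 37.9 ± 9.18 CPM in SKG (SD, n = 3 each; log2 fold change 1.56, adjusted p = 0.834 by edgeR). Eri3 was at 63.0, 43.1 and 61.2 CPM in BALB/c and at 63.4, 75.1 and 91.0 CPM in SKG. Zfp410 was 168 ± 29.0 against 229 ± 22.2 CPM, and Timm22, a subunit of a mitochondrial import complex, was 48.0 ± 19.7 against 81.1 ± 25.7 CPM.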
